A study of Mus musculus with 12 samples.

Results

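The BAFF and RANK systems are a pair of ligand and receptor groups of the tumour necrosis factor (TNF) family, and they were followed here in hippocampal microglia of control male Balbc mice at postnatal day 14 (P14) and postnatal day 28 (P28). The genes were picked by name: the BAFF ligand Tnfsf13b, its receptors Tnfrsf13b (TACI), Tnfrsf13c (BAFF-R) and Tnfrsf17 (BCMA), the receptor Tnfrsf11a (RANK) and its ligand Tnfsf11 (RANKL). All 6 were on the panel, 6 of its 545 immune genes, and 5 of the 6 exceeded background in enough samples to be tested, against 366 of the 545 genes. They were chosen with the age comparison of these data already known, in which Tnfsf13b and Tnfrsf11a were among the largest rises, so their differences between the ages are given as a description and no p-value is given for them.

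Microglia were sorted from 6 animals per age, all raised under control conditions and each from a different litter. Their RNA was measured with the mouse immune panel of the nCounter platform, in which a fluorescent barcode bound to each target is counted without sequencing. The sources used here do not give the gate of the sort, and no stressed animals were analysed. Levels are raw counts scaled to the geometric mean of 6 reference genes ("scaled counts"). Each probe binds its target with its own efficiency, so levels were compared between samples for 1 gene and not between genes.

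BAFF is a membrane or secreted trimer made mainly by myeloid cells, and it keeps B cells alive through BAFF-R, while TACI and BCMA bind it on activated B cells and plasma cells. RANK is a receptor of macrophage and dendritic lineages. When RANKL, made by osteoblasts and T cells among others, binds it, RANK recruits TRAF adaptors, activates NF-kB and drives precursors of the monocyte lineage towards osteoclasts. BAFF-R and RANK both feed the alternative branch of NF-kB, in which TRAF3 loss releases a kinase that processes Nfkb2 to pair with Relb.

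The total raw count of the 545 genes lay between 356398 and 1316430 at P14 and between 1025196 and 1534665 at P28. P14 samples 4 and 5 were the shallowest (772723 and 356398), and they stood apart from the other P14 samples in several genes given here, so results that rest on them are also given without them. The 8 negative probes of each lane set its background threshold, their mean plus 2 SD, which lay between 12.9 and 33.4 counts. The positive-control spikes, which do not depend on the RNA, summed to 14924 to 20649 counts in the P14 lanes and to 36530 to 41574 in the P28 lanes, a ratio of means of 2.18. This lane property moved with age without overlap, and its part in the differences between the ages cannot be told apart from age on the scale of the spikes. Values scaled to the spikes alone are therefore given where they turn a direction or move a value.

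Tnfsf13b and Tnfrsf11a, the ligand of the BAFF system and the receptor of the RANK system, were higher at P28 without overlap of the ages. Their promoter stretches are shown because these are the members that separated the ages. Both are the 250 bases before the most upstream start of each gene in a table of RefSeq promoters (GRCm38.p6), 5′ to 3′ on the plus strand, with matches to the E box outline CANNTG in capitals. The Tnfsf13b stretch lies at chr8:10006217-10006466 and the Tnfrsf11a stretch at chr1:105780473-105780722.
Tnfsf13b: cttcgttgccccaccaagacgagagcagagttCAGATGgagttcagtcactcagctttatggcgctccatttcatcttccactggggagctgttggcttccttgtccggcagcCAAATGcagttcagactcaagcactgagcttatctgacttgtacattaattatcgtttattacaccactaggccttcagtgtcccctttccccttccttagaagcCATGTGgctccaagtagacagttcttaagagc
Tnfrsf11a: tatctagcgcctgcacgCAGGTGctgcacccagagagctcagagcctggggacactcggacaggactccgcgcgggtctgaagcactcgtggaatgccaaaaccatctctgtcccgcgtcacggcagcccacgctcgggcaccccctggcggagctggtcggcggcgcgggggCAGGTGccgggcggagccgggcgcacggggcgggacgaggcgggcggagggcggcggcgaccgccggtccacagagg

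The GC content was 48.8% for Tnfsf13b and 73.6% for Tnfrsf11a, against a median of 52.4% over 32851 promoter windows. Of 6 motifs searched on both strands of the 300-base windows, the E box was the only one found in windows of both genes, and 72.3% of all windows hold it. The AP-1 motif TGANTCA occurred in both windows of Tnfsf13b, which overlap and share this match, and in 7.81% of all windows, but not in that of Tnfrsf11a. The outline of a kappa B site, GGG, any 5 bases and CC, occurred 3 times for Tnfrsf11a, counted on both strands and with overlapping matches, and not for Tnfsf13b, and 50.8% of all windows hold it. The PU.1 core GAGGAA, held by 28.3% of windows, and the GAS motif TTCNNNGAA, held by 8.30%, were in neither. The second window of Tnfsf13b, at a start further downstream, held the outline of an interferon response element, GAAA, any 2 bases and GAAA, 16 bases before that start, as 3.44% of windows do. The stretch printed here, with the match in capitals, lies at chr8:10006609-10006634 on the plus strand.
Tnfsf13b, second start: caaaaactGAAAGTGAAAtgcggaag

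The BAFF ligand came first in size. Scaled counts of Tnfsf13b were 28.7, 37.1, 46.9, 40.5, 30.8 and 53.5 in P14 samples 4, 5, 16, 25, 61 and 81. At P28 they were 193, 215, 258, 181.5, 174 and 211 in samples 118, 134, 135, 119, 137 and 138. The lowest P28 sample thus lay above the highest P14 sample by more than the whole range of P14. The mean went from 39.6 ± 9.48 to 205 ± 30.5 (SD, n = 6 each), a log2 difference of 2.36 ± 0.17 (SE of the edgeR fit). Among the 366 genes this difference ranked 5th from the top. Scaled to spikes alone it was 1.59, still without overlap (19.5 to 95.7 at P14 and 138 to 201 at P28). At P14 the raw counts were only 15 to 62 against lane thresholds of 12.9 to 32.0, so the P14 level was close to background, and subtracting the negative probes raised the log2 difference to 2.88. In the authors' deposited table the fold of Tnfsf13b was 5.68. In a bulk sample, more cells that express a gene and more RNA per cell cannot be told apart, here and in all results given.

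Of the 3 BAFF receptors, Tnfrsf13b and Tnfrsf13c lay near background at both ages, and the ages overlapped for all 3. Tnfrsf13b, which encodes TACI, had scaled counts of 37.8 and 59.4 in P14 samples 4 and 5 and of 22.5 to 24.2 in the other P14 samples. At P28 it ranged from 26.6 in sample 118 to 50.6 in sample 138, with a median of 34.0. The log2 difference was 0.31 ± 0.25. The means were 31.7 ± 14.7 and 37.2 ± 9.37 (SD, n = 6 each). Without P14 samples 4 and 5 the P14 mean was 23.3 ± 0.91 (SD, n = 4), the ages no longer overlapped, and the log2 difference was 0.66. With spikes alone it was -0.30. The raw counts of Tnfrsf13b at P14 were almost flat, 24 to 29, with a coefficient of variation (CV) of 7.47% where counting error alone gives 19.5%. In sample 5, whose total count was 30.4% of the median of the other P14 samples, the Tnfrsf13b count was 88.9% of theirs, the Tnfsf13b count 33.3% and the Tnfrsf17 count 28.6%.

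Tnfrsf13c, which encodes BAFF-R, exceeded its lane threshold in 5 of the 6 P14 samples and 4 of the 6 P28 samples. Its scaled counts ran from 17.1 in sample 25 to 33.7 in sample 61 at P14 and from 25.1 in sample 137 to 36.4 in sample 138 at P28. The means were 27.1 ± 5.58 and 27.8 ± 4.29 (SD, n = 6 each), a log2 difference of 0.04 ± 0.16 that was -0.68 with spikes alone. The spread of its raw counts at P28, a CV of 15.9%, was no larger than the 17.9% that counting error gives. The difference between the ages was smaller than its SE for BAFF-R.

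Tnfrsf17, which encodes BCMA, was above background in all 12 samples. Its scaled counts ranged from 44.5 in sample 5 to 82.1 in sample 4 at P14 and from 46.9 in sample 137 to 71.9 in sample 138 at P28. The means were 59.0 ± 13.4 and 54.3 ± 9.65 (SD, n = 6 each), and the log2 difference was -0.13 ± 0.16, or -0.87 with spikes alone. P28 sample 138 held the highest scaled count of all 3 BAFF receptors at its age, but with spikes alone it was the highest for none of them.

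**Figure D1:**
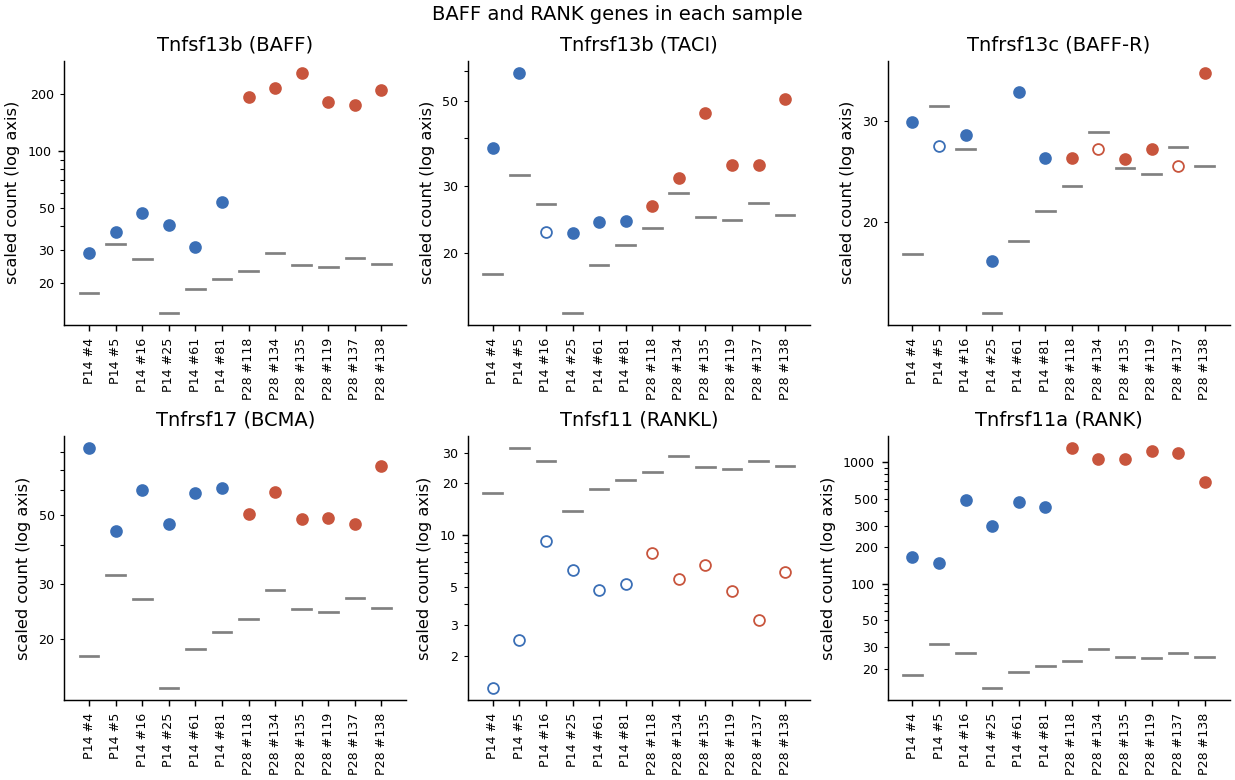
Scaled counts (log axis, a different range in each panel) of the 6 genes in each of the 12 samples, P14 in blue and P28 in red. Grey bars mark the background threshold of each lane on the same scale, and open points lie below it; Tnfsf13b and Tnfrsf11a separate the ages, and Tnfsf11 is open in all 12 samples.

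RANK was the second gene that separated the ages. Scaled counts of Tnfrsf11a were 167, 148, 489, 299.5, 475 and 431 in P14 samples 4, 5, 16, 25, 61 and 81. At P28 they were 1311, 1073, 1070.0, 1240.3, 1195.5 and 695.5 in samples 118, 134, 135, 119, 137 and 138. P14 samples 4 and 5 were the lowest of all, and P28 sample 138 was the lowest of its age but still above every P14 sample. The means were 335 ± 153 and 1098 ± 218 (SD, n = 6 each), a log2 difference of 1.70 ± 0.28, which ranked 9th among the 366 genes. It was 1.37 without P14 samples 4 and 5, and 0.86 with spikes alone, where the ages overlapped (77.8 to 857 against 466 to 1237). In the authors' deposited table the fold of Tnfrsf11a was 3.60.

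Tnfsf11, the ligand RANKL, was above background in 0 of 12 samples. Its raw counts were 1 to 11, under the mean of the negative probes in every lane (0.12 to 0.75 times that mean). The microglial preparations thus held a RANK signal well above background, at least 8.42 times the negative-probe mean in every lane, while the probe for its ligand did not exceed background in any. No fold is given for Tnfsf11.

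The age comparison called 2 of the 5 tested genes higher and 0 lower at an adjusted p under 0.05 (edgeR, Benjamini-Hochberg over 366 genes), where 30.6% of all 366 were called, 16.7% higher and 13.9% lower. The ages did not overlap for 2 of the 5, both higher, against 20.8% of all genes in either direction and 12.8% higher. Since the members were picked with this comparison known, nothing is read from either count. The median log2 difference over the 366 genes was 0.0026, and it moved to -0.74 with spikes alone, -0.14 with total counts, -0.12 without the reference gene Polr1b and 0.13 with the authors' factors.

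**Figure D2:**
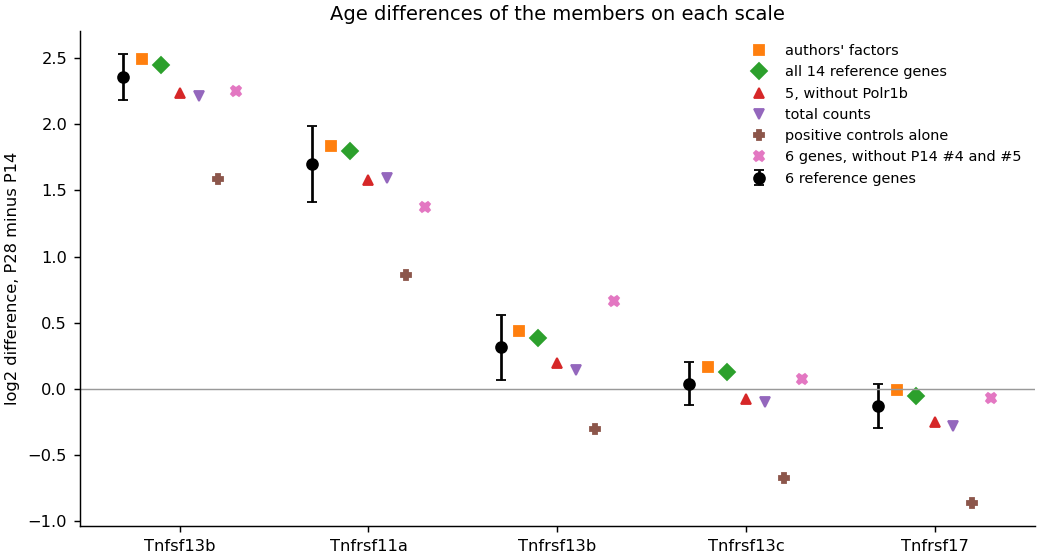
Log2 differences (P28 minus P14) of the 5 tested genes under 6 ways of scaling and without P14 samples 4 and 5; the bar on the black point is the SE of the edgeR fit. Tnfsf13b and Tnfrsf11a are above 0 on every scale shown, while the 3 BAFF receptors lie below 0 with positive controls alone.

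Ligand and receptor were then compared within each sample, as the ratio of 2 raw counts of 1 lane, which no scaling can change. The size of such a ratio depends on the probes, so only its change between samples is read. Tnfsf13b over Tnfrsf13b was 0.76, 0.62, 2.07, 1.80, 1.28 and 2.21 in P14 samples 4, 5, 16, 25, 61 and 81. At P28 it was 7.27, 6.86, 5.53, 5.35, 5.12 and 4.16 in samples 118, 134, 135, 119, 137 and 138. The ages did not overlap, and the mean log2 ratio was 0.39 ± 0.77 in P14 samples and 2.49 ± 0.29 in P28 samples (SD, n = 6 each), a difference of 2.10. For BAFF-R, Tnfsf13b over Tnfrsf13c ran from 0.91 to 2.37 at P14 and from 5.78 to 10.04 at P28, a log2 difference of 2.34. For BCMA, Tnfsf13b over Tnfrsf17 ran from 0.35 to 0.87 and from 2.93 to 5.31, a log2 difference of 2.50. BAFF counts thus stood higher against those of each of its 3 receptors in every P28 sample than in any P14 sample. As the scaled counts of these receptors differed little between the ages, the ratios mostly restate the rise for which Tnfsf13b was picked. Tnfrsf13b and Tnfrsf13c also lay near background, so nothing further is read from them. Between the members that separated the ages, Tnfsf13b over Tnfrsf11a overlapped (0.065 to 0.25 at P14 and 0.15 to 0.30 at P28), with a log2 difference of 0.56 that was under the SD within P14 (0.67).

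**Figure D3:**
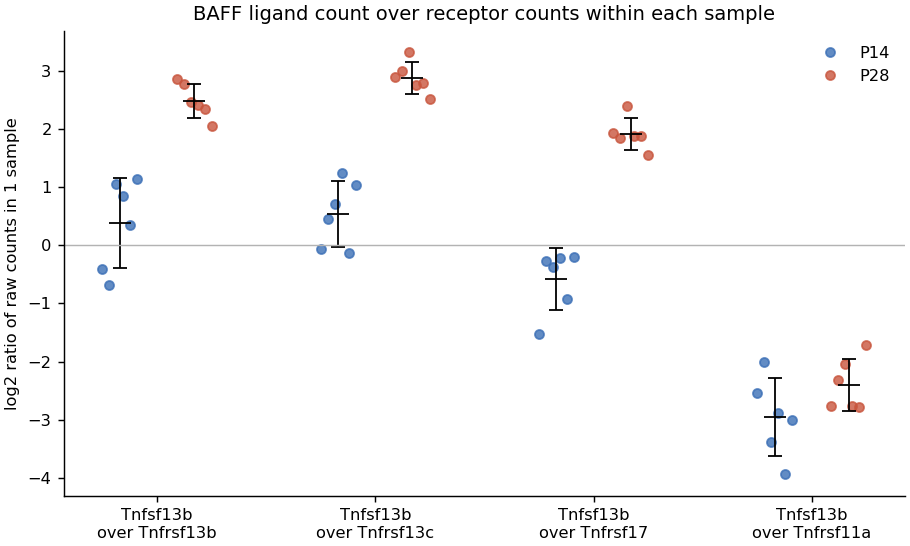
Log2 of the Tnfsf13b raw count over the raw count of each receptor in the same sample, P14 in blue and P28 in red; black bars are the mean and SD of 6 samples. The ratios to the 3 BAFF receptors do not overlap between the ages, and the ratio to Tnfrsf11a does.

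The members also differed in their spread between animals of 1 age. At P14 the CV of scaled counts was 45.6% for Tnfrsf11a and 46.4% for Tnfrsf13b, above that of 91.0% and 92.1% of the 366 genes, whose median CV was 23.1%. Tnfsf13b (24.0%), Tnfrsf13c (20.6%) and Tnfrsf17 (22.8%) were near that median. At P28 the CV was 14.8% for Tnfsf13b, 25.2% for Tnfrsf13b and 19.9% for Tnfrsf11a, against a median of 15.6%. In P14 samples 4 and 5 the scaled count of RANK was low, and without them its P14 mean was 423 ± 86.3 (SD, n = 4). The scaled count of TACI was high there while its raw counts were not (29 and 24, against 25 to 28), and with spikes alone its values in samples 4 and 5 were 37.3 and 31.1, against 32.1 to 43.2 in the other P14 samples.

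Of 20 correlations between member pairs within an age, 0 passed after Benjamini-Hochberg adjustment (exact two-sided permutation tests over all pairings, n = 6). For scaled counts of Tnfrsf13b and Tnfrsf11a, Pearson's r was -0.89 at P14 (exact permutation p = 0.0236, adjusted p = 0.194; Spearman's rho -0.66, p = 0.175, adjusted p = 0.875) and -0.80 at P28 (exact permutation p = 0.0292, adjusted p = 0.194; rho -0.83, p = 0.0583, adjusted p = 0.583). Without the 2 samples farthest from the median of Tnfrsf13b, r was 0.47 at P14 and -0.42 at P28, so the relation rested on those samples. With spikes alone, r was 0.69 at P14, the opposite sign, and -0.035 at P28. For Tnfrsf13c and Tnfrsf17 at P28, r was 0.91 (exact permutation p = 0.00833, adjusted p = 0.167) and rho 0.94 (p = 0.0167, adjusted p = 0.333). Sample 138 was highest for both, and r was 0.55 without 2 samples. Tnfrsf11a, lowest in that sample, had r of -0.93 with Tnfrsf13c at P28 (exact permutation p = 0.0583, adjusted p = 0.233). With Tnfrsf17 it was -0.89 (exact permutation p = 0.05, adjusted p = 0.233). On the scale of the spikes, r at P28 was 0.92, 0.33 and 0.15 for these pairs in turn. For Tnfsf13b and Tnfrsf11a, r was 0.49 at P14 (exact permutation p = 0.311, adjusted p = 0.678). At P28 it was -0.37 (exact permutation p = 0.443, adjusted p = 0.738). Spearman's rho was 0.43 and -0.60 (exact permutation p = 0.419 and 0.242, adjusted p = 0.878 for both). Without 2 samples, their r was 0.073 at P14 and -0.65 at P28. With spikes alone, it was 0.93 at P14 (exact permutation test, adjusted p = 0.0556). At P28 it was then 0.63 (exact permutation test, adjusted p = 0.308), the opposite sign. With 6 samples per age and this dependence on the scale, no relation is read.

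RANK counts were also set against single reference genes, and the pattern given here was picked out after its values were seen. Within an age they followed Gusb, a lysosomal enzyme, at both ages, and Polr2a, the largest subunit of RNA polymerase II, at P14. Neither gene was among the 6 used for scaling. Scaled counts of Gusb were 615 and 499.6 in P14 samples 4 and 5 and 1277 to 2019 in the other P14 samples, and 867 in P28 sample 138 against 1175 to 1373 in the other P28 samples. The ratio of the Tnfrsf11a count to the Polr2a count was 0.223, 0.224, 0.219, 0.239, 0.235 and 0.235 in P14 samples 4, 5, 16, 25, 61 and 81. Its CV at P14 was 3.63%, and 0 of the 366 genes had a lower CV on that scale, where the median was 44.5%. At P28 it did not follow Polr2a: the CV was 19.5%, against a median of 17.4%, and 215 of the 366 genes were lower. Over Gusb, RANK had a CV of 8.97% at P14 (4 of 366 genes lower) and 7.68% at P28 (17 lower). Over Eef1g, a translation factor subunit, it was 12.7% (15 lower) and 12.03% (70 lower). The Tnfrsf11a to Gusb ratio was 0.235 to 0.297 at P14 and 0.803 to 0.986 at P28. With the 14 reference genes taken singly as the scale, the log2 difference of Tnfrsf11a ranged from 1.41 to 2.46 and the ages did not overlap on 12 of the 14 scales. That of Tnfsf13b ranged from 1.97 to 3.02, without overlap on all 14. Tnfrsf13b, Tnfrsf13c and Tnfrsf17 were higher at P28 on 12, 9 and 5 of the 14 scales, so their direction depended on the reference gene.

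**Figure D4:**
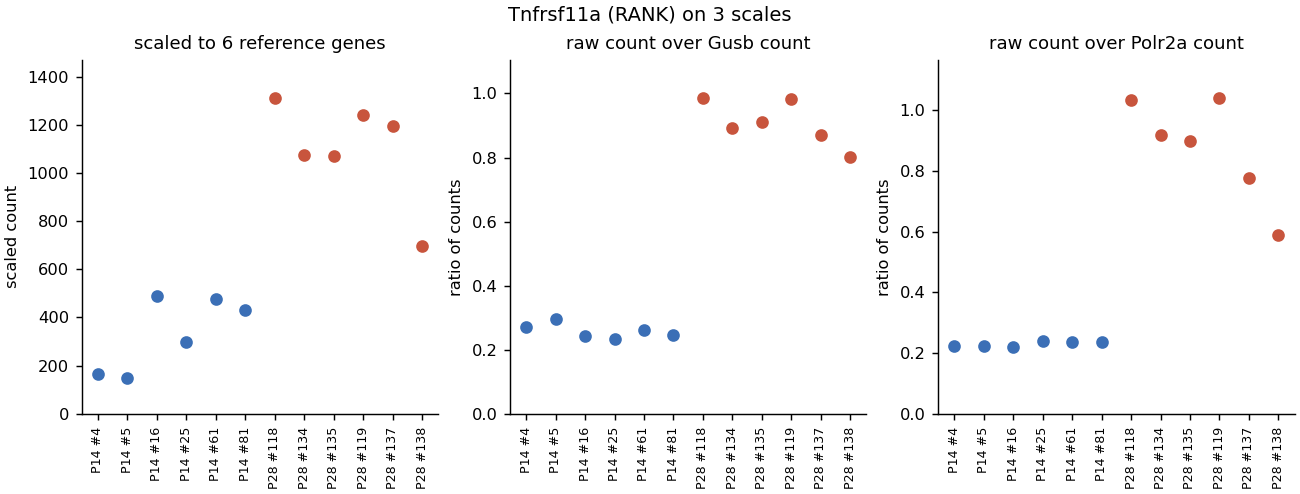
Tnfrsf11a in each sample as scaled counts (left), as the ratio of its raw count to that of Gusb (middle) and to that of Polr2a (right), all axes starting at 0; P14 in blue and P28 in red. The P14 samples range from 148 to 489 scaled counts but lie between 0.219 and 0.239 as a ratio to Polr2a, and the ages are apart in all 3 panels.

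Likeness to other genes was measured as the root mean square difference of log2(scaled count + 1) profiles over the 12 samples, each centred on its mean. The difference between the ages is part of this measure. Genes near Tnfsf13b and Tnfrsf11a, which were picked for their rise, are thus other genes that rose, and nothing is read from that. Among them, Cybb was above background in 0 P14 samples and 6 P28 samples. The genes nearest to Tnfsf13b were the chemokines Ccl6 (0.36) and Cxcl9 (0.38), the NADPH oxidase chain Cybb (0.45) and the integrin chain Itgax (0.47), against a median of 1.22 over all genes. The scaled counts of Ccl6 were 121 to 208 at P14 and 507 to 749 at P28, without overlap. Nearest to Tnfrsf11a were Socs3, a feedback inhibitor of cytokine signalling (0.36), Itgax (0.42), Cybb (0.46) and the co-stimulatory ligand Icosl (0.46). Socs3 was lowest at P14 in samples 4, 5 and 25 (579, 549 and 584 scaled counts, against 1266 to 1463 in the others) and lowest at P28 in sample 138 (1625, against 2137 to 2583).

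TACI had other neighbours. The gene nearest to Tnfrsf13b was Csf3r, the receptor for the neutrophil growth factor G-CSF (0.21), followed by Clec5a (0.21), Tagap (0.22) and Cd81 (0.27). Csf3r was highest in P14 samples 4 and 5 and P28 sample 138, where Tnfrsf13b was also highest at each age, with 6598 and 8602 scaled counts in P14 samples 4 and 5 against 2754 to 3602 in the other P14 samples, and 8177 in P28 sample 138 against 4116 to 5030 in the other P28 samples. P28 sample 135, with Tnfrsf13b at 46.7, had Csf3r at 5030 and did not share the pattern. Raw counts of Csf3r in P14 sample 5 (3478) lay within those of the other P14 samples (3234 to 5062). Tnfrsf13c was nearest to Tyk2, Pdgfb, Hif1a and H2-K1 (0.18 to 0.21), and Tnfrsf17 to C1qbp, Tyk2, Zeb1 and C1qb (0.17 to 0.22).

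Below the receptors lie the adaptors, kinases and NF-kB subunits. Of 20 present genes of that list, 2 rose, 3 fell and 15 did not pass (25.0% called, against 30.6% of all genes; median log2 difference -0.03). The adaptor Traf2 fell from 1200.0 ± 212 to 795 ± 47.8 scaled counts (-0.60 ± 0.12, edgeR adjusted p = 0.00217). Relb, the partner of the processed Nfkb2 product in the alternative branch, fell from 105 ± 25.6 to 61.3 ± 11.4 (-0.78 ± 0.18, edgeR adjusted p = 0.00396), and Nfkb1, the precursor of the p50 subunit, fell by 0.68 ± 0.18 on the log2 scale. Rela, the main transactivating subunit, rose from 2156 ± 309 to 2996 ± 690 (0.47 ± 0.15, edgeR adjusted p = 0.0224), a call lost without P14 samples 4 and 5 and without Polr1b, and at -0.32 with spikes alone. Nfkbiz, an atypical regulator of NF-kB, rose by 0.73 ± 0.18, a call lost with spikes alone (0.051). With P14 samples 4 and 5 left out, the list held 2 genes called higher and 6 called lower. Calls over all genes also grew in number under that choice, as given in the last section, so nothing is read from this count.

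Of 10 present genes known to act with RANK in osteoclast formation, 2 rose, 1 fell and 7 did not pass (30.0% called, as for all genes; median 0.23). Trem2, a lipid-sensing receptor that signals through Tyrobp, rose by 0.71 ± 0.13 (edgeR adjusted p = 0.000687) and the cytokine Il1b rose from 69.9 ± 13.4 to 103 ± 13.7 (0.54 ± 0.15, edgeR adjusted p = 0.0120), but with spikes alone they were at -0.065 and -0.22. Fcer1g, an adaptor chain that works beside Tyrobp, fell by 1.07 ± 0.10 on the log2 scale (edgeR adjusted p = 9.85e-07). Csf1r, the receptor whose signal precedes that of RANK, had a log2 difference of 0.29 ± 0.17 and Tgfb1 one of 0.41 ± 0.18, and neither passed. Both were called higher with all 14 reference genes and in a fit to the authors' deposited values. With spikes alone they were at -0.53 and -0.39. Scaling to all 14 reference genes gave 4 calls of higher and 1 of lower. On that scale calls of higher also outnumbered calls of lower over all genes, as given in the last section.

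Of 19 present genes that are known to raise BAFF in myeloid cells or that report interferon, 3 rose, 0 fell and 16 did not pass (15.8% called, against 30.6% of all genes; median 0.10). The interferon gamma target Cxcl9 rose by 2.49 ± 0.17 on the log2 scale (edgeR adjusted p = 2.40e-07), with means of 16.9 ± 4.69 and 97.9 ± 13.2 scaled counts (SD, n = 6 each). It exceeded the lane threshold in 2 of the 6 P14 samples and in all 6 P28 samples. Tlr3 rose by 0.65 ± 0.13 (edgeR adjusted p = 0.00148) and Tlr9 by 0.28 ± 0.10 (edgeR adjusted p = 0.0391), while with spikes alone they were at -0.15 and -0.45. Tlr9 lost its call when any 1 of 9 of the 12 samples was left out. Cxcl10, another interferon-induced chemokine, did not pass, with means of 119 ± 159 and 43.6 ± 37.8 scaled counts (-1.48 ± 0.65, edgeR adjusted p = 0.0989). It was called lower with spikes alone (-2.34), without P14 samples 4 and 5 (-1.89) and without P28 sample 138 (-2.08), while without P14 sample 25 it was at -0.37. Of the interferon genes on the list, Ifng and Ifna1 each exceeded background in 2 P14 samples and 0 P28 samples, and Ifnb1 did so in 0 of 12. Ifna2, which was not on the list, exceeded background in 5 P14 samples and 5 P28 samples. Lane thresholds were mostly higher at P28 (24.8 to 33.4 counts, against 12.9 to 32.0 at P14), so these numbers of samples do not compare levels. Mean scaled counts at P14 and P28 were 15.5 ± 2.65 and 15.2 ± 4.32 for Ifng and 15.6 ± 5.65 and 12.8 ± 3.66 for Ifna1 (SD). The counts of this list depended on the scale, with 6 higher and 0 lower by the authors' factors and 1 higher and 5 lower with spikes alone. Without P14 samples 4 and 5 they were 3 and 3. The split over all genes, given for each setting in the last section, shifted in the same direction, so nothing is read from these counts.

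**Figure D5:**
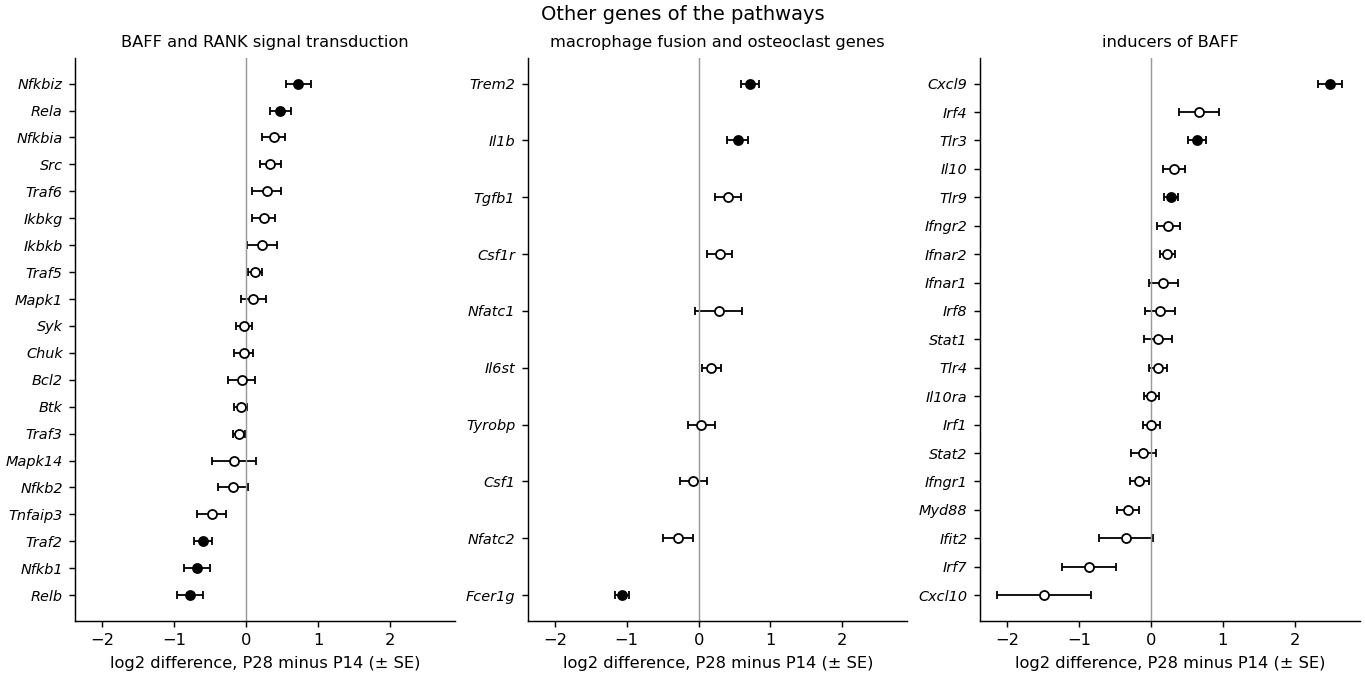
Log2 differences between the ages (P28 minus P14, with the SE of the edgeR fit) of the present genes of 3 lists; filled points passed an adjusted p under 0.05 and open points did not. Cxcl9 lies furthest to the right and Cxcl10, which did not pass, furthest to the left.

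Other members of the family were set beside the BAFF and RANK genes. Of 7 present TNF ligands, 2 rose, 1 fell and 4 did not pass (42.9% called, against 30.6% of all genes). Tnf rose by 0.88 ± 0.17 (edgeR adjusted p = 0.000953) and Tnfsf12, the ligand TWEAK, by 0.48 ± 0.14 (edgeR adjusted p = 0.0160), which was -0.23 with spikes alone, and Tnfsf10, the death ligand TRAIL, fell by 0.70 ± 0.13 on the log2 scale. The call of Tnf was lost with spikes alone (0.14). Of 6 present TNF receptors, Ltbr, the lymphotoxin beta receptor that also feeds the alternative NF-kB branch, fell from 124 ± 14.1 to 90.4 ± 6.49 (-0.45 ± 0.12, edgeR adjusted p = 0.00857), 0 rose and 5 did not pass (16.7% called, against 30.6% of all genes). Fas, Cd40 and Tnfrsf9 were above background in 0 of 12 samples.

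Markers of the labelled cell and of other cells that carry these genes were checked in the same samples. All 10 microglia markers on the panel were above background in all 12 samples, among them Cx3cr1, Csf1r and Trem2. Their summed scaled counts, to which Csf1r and Itgam gave the largest parts, were 247337 to 308834 at P14 and 273135 to 308518 at P28. Emr1 fell by 0.72 ± 0.08 on the log2 scale (edgeR adjusted p = 1.02e-05), Trem2 rose, and 8 did not pass. Of 9 B cell markers, 5 were present, while Pax5 and Cr2 were above background in 0 of 12 samples; the sum, mostly Blnk, was 2651 to 4753 at P14 and 3542 to 5046 at P28. Cd79b fell by 1.20 on the log2 scale and Cd79a rose by 0.76, but with spikes alone Cd79a was at -0.0095. Of 12 T cell markers, 4 were present and Cd3e, Cd2 and Cd28 were above background in no sample (sums of 266 to 312 and 233 to 299). Lck fell by 1.01 on the log2 scale and Cd5 rose by 1.07, a call lost with spikes alone (0.33). All 3 plasma cell markers were present, with sums of 3816 to 5164 at P14 and 5838 to 6407 at P28 that did not overlap. The sum was mostly Xbp1 and Prdm1. Both rose, but with spikes alone they were at -0.27 and -0.38. Irf4 did not pass, and was at -0.17 with spikes alone. Of 7 dendritic cell markers, 4 were present, with sums of 960 to 1656 at P14 and 1907 to 2410 at P28 that did not overlap. The sum was mostly Cd83. Itgax and Cd83 rose, but with spikes alone Cd83 was at -0.12. Xcr1 and Cd209g were each above background in 1 of 12 samples. Of 9 monocyte and neutrophil markers, 5 were present, while S100a9 was above background in no sample. Cxcr2 fell by 1.74 and Itgal by 1.13 on the log2 scale, each above background in 6 P14 samples and 0 P28 samples. The summed scaled count of the list, mostly Csf3r, was highest in P14 samples 4 and 5 (6864 and 8874) and P28 sample 138 (8516), against 3237 to 5365 in the others, among them P28 sample 135. The part of such cells in the levels of the members was not tested.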

How the data were processed

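The members and the gene lists were chosen with earlier results of these data known. RNA (2 ng) was turned into cDNA, amplified by 5 PCR rounds and hybridised, per the labels' protocols; PCR copies are not independent molecules, so counting error understates the error. The authors deposited raw counts per probe, unscaled, for 573 probes: 545 genes, 14 reference genes, 8 negative and 6 positive controls. Their second deposited table holds values the authors scaled to positive controls and reference genes, used here as a score, with their fold (a ratio of means) and a p-value, which was not used. Counting software: not given in the sources used here. The design text speaks of 5 reference genes but names 6, all used. Probe targets of all 6 members matched RefSeq (GRCm38.p6).

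A gene was present when above its lane threshold in at least 40% of the 12 samples. Present genes were fitted with edgeR 4.0.16 (R 4.3.3; glmQLFit, glmQLFTest; age as the only term, reference genes as offset, FDR 0.05). SE is the log2 difference over the root of F. On counts simulated for these 366 genes, 77 of 100 genes set to a 1.5-fold change and 99 of 100 set to a 2-fold change were called, and 1 of 166 unchanged genes. The simulation drew each gene independently, with a spread estimated on total counts of present genes and not on the reference genes. A deviation that genes share within a sample, as in P14 samples 4 and 5, is thus absent from it. Named genes are the members, up to 5 present genes per list with the smallest adjusted p, and the 4 nearest genes of each member; others are given by presence alone or named as picked after their values were seen. Alternatives were DESeq2 1.42.0, limma 3.58.1 on the authors' values, other scalings, filters and pseudocounts, subtraction of negative probes, and samples left out. Sample numbers are those of the titles. The tables hold 0 columns of other samples.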

Additional observations from a re-analysis of the deposited data

Results flagged for a closer look

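Of 34 sets of 6 samples examined, 3 had 1 sample far from the rest by Dixon's test, which chance gives in about 1 in 20 sets. The Tnfrsf13c level of P28 sample 138, 36.4 scaled counts, lay apart from the other P28 samples (25.1 to 26.9). The log2 ratio of Tnfrsf13b to Tnfrsf17 in P14 sample 5, 0.42, lay above those of the other P14 samples. The summed monocyte and neutrophil markers of P28 sample 138, 8516 scaled counts, lay above the other P28 samples (4380 to 5365).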

How the results depend on the processing

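The log2 difference of Tnfsf13b was 2.28 to 2.47 and that of Tnfrsf11a 1.56 to 1.84 with each sample left out in turn; Tnfrsf13b gave 0.21 to 0.51, Tnfrsf13c -0.072 to 0.12 and Tnfrsf17 -0.22 to -0.020. Positive controls alone moved Tnfsf13b, Tnfrsf11a, Tnfrsf13b, Tnfrsf13c and Tnfrsf17 to 1.59, 0.86, -0.30, -0.68 and -0.87, and subtracting negative probes moved Tnfsf13b to 2.88 and its ratios to Tnfrsf13c and Tnfrsf17 to 2.79 and 3.01. Left-out samples gave log2 ratio differences of 1.89 to 2.25 for Tnfsf13b over Tnfrsf13b, 2.21 to 2.48 over Tnfrsf13c, 2.32 to 2.58 over Tnfrsf17 and 0.36 to 0.75 over Tnfrsf11a, and of 0.30 to 0.68 for Tnfrsf13b over Tnfrsf17. Genes called numbered 102 to 121 with a sample left out and 86 to 158 over all alternatives. Their split was 61 higher and 51 lower; it was 89 and 26 for limma on the authors' values, 93 and 36 for the authors' factors, 89 and 42 for 14 reference genes, 51 and 96 for total counts, 50 and 74 once Polr1b was dropped, 8 and 128 for positive controls alone, and 68 and 90 without P14 samples 4 and 5. List counts with a sample left out were 5 to 6 for signal transduction, 3 to 4 for osteoclast genes, 2 to 3 for BAFF inducers, 3 for TNF ligands and 1 for TNF receptors. Without P14 samples 4 and 5, they were 8 for signal transduction, 6 for inducers and 2 for TNF receptors. Osteoclast genes numbered 5 with all 14 reference genes and with limma. Inducers numbered 6 with the authors' factors, with all 14 reference genes and with positive controls alone, and 5 with total counts and with limma; TNF receptors numbered 2 with the authors' factors and with positive controls alone. Among the called pathway genes that were named, positive controls alone reversed Rela (-0.32), Trem2 (-0.065), Il1b (-0.22), Tlr3 (-0.15), Tlr9 (-0.45) and Tnfsf12 (-0.23). Among those not called, it changed the sign of Csf1r (-0.53), Tgfb1 (-0.39), Irf4 (-0.17), Cd27 (-0.59), Tnfrsf4 (-0.23) and Tnfrsf14 (-0.72). The cause was not tested. Over the 25 named pathway genes, 6 values of called genes reversed, 19 lost and 20 gained a call, and 525 kept their call or lack of it. Sign changes of genes not called are among the 525. No pair of members passed under total counts, positive controls alone or a pseudocount of 10. Single reference genes as the scale were added after the data were seen: Tnfsf13b moved to 3.02 (Eef1g), 2.02 (Gapdh), 2.66 (Oaz1), 3.01 (Polr1b), 1.97 (Ppia), 2.84 (Rpl19) and 2.72 (Tubb5). Tnfrsf11a moved to 2.46 (Eef1g) and 2.45 (Polr1b), and Tnfrsf13b to 0.92 (Eef1g) and 0.91 (Polr1b). Tnfrsf13c moved to 0.68 (Eef1g), -0.32 (Gapdh), 0.32 (Oaz1), 0.67 (Polr1b), -0.38 (Ppia), 0.50 (Rpl19), -0.23 (Sdha) and 0.38 (Tubb5). Tnfrsf17 moved to 0.52 (Eef1g), -0.48 (Gapdh), 0.16 (Oaz1), 0.50 (Polr1b), -0.54 (Ppia), 0.34 (Rpl19) and 0.22 (Tubb5). No paired analysis was possible because the ages share no sample number. Signal over background was lowest for Tnfsf11, under every lane threshold, for Tnfrsf13b and Tnfrsf13c, and for Tnfsf13b at P14.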
